A study of Mus musculus with 12 samples.

Results

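The translation initiation and elongation factors of the mouse are the proteins that bring a ribosome to the start codon of an mRNA and then move it along the coding sequence. They were followed here as the 58 protein-coding genes whose symbols begin with Eif1 to Eif6, Eef1, Eef2 or Eefsec, leaving out the kinases, methyltransferases and splicing helicase that share those prefixes. These 58 genes were taken from a table of 54532 genes, of which 22046 were protein-coding. The rule rested on gene names and used no measured value, but it was set with earlier results of these data known.

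The libraries came from E12.5 limb buds of 2 genotypes. The cKO embryos carried Mettl14 flox/flox and were labelled as knockout. The cHet embryos carried Mettl14 wt/flox and served as the heterozygous control, so that both genotypes had at least 1 floxed allele. Mettl14 is a subunit of the nuclear enzyme complex that writes N6-methyladenosine on RNA. A cytoplasmic lysate of each replicate was sequenced before the sucrose gradient (input), and the RNA of its polysome fractions was sequenced separately (polysome), with 3 biological replicates in each of the 4 groups. The Cre line, the number of embryos in a replicate and the strain background are not given in the sources used here.

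In eukaryotic initiation, eIF1, eIF1A, eIF3 and eIF5 gather on the small ribosomal subunit with the initiator tRNA carried by eIF2, and eIF4F brings this complex to the mRNA cap. eIF2B recharges eIF2 with GTP, eIF5B joins the large subunit, and eEF1 and eEF2 then deliver aminoacyl-tRNA and translocate the ribosome. Many vertebrate mRNAs for elongation factors, and some for initiation factors, begin with a C followed by a run of C and T, the 5′ terminal oligopyrimidine (TOP) motif, through which the mTOR pathway and LARP1 control their loading onto polysomes.

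The libraries held 10349912 to 30068823 reads assigned to genes, so that counting error was small for most factors. Mettl14 itself was measured at 2.60, 3.32 and 1.26 FPKM (fragments scaled to gene length and library size) in cKO input, against 4.09, 4.03 and 4.04 FPKM in cHet input, and the groups did not overlap. On polysomes it stood at 2.73, 2.81 and 3.29 FPKM in cKO, against 2.83, 3.07 and 3.02 FPKM in cHet, and these groups overlapped. The labels do not say which part of the gene the floxed allele loses, so its whole-gene FPKM is a partial check of the labels. A pair of libraries stood apart in a principal component analysis of 13610 genes. The cKO polysome replicate 1 lay at 3.97 on the first component, against 35.5 to 53.8 for the other polysome libraries, and the cKO input replicate 3 lay at 63.0 on the second component, against -22.5 to -0.493 for the other input libraries. The limb mesenchyme markers summed to 1080 to 1321 FPKM in cKO input, against 784 to 952 FPKM in cHet input, and all 8 were detected. On polysomes their sums overlapped, at 1368 to 2079 FPKM in cKO and 1487 to 1660 FPKM in cHet. Epidermal markers summed to 310 to 343 FPKM in cKO input, against 260 to 262 FPKM in cHet input, and to 153 to 322 FPKM on cKO polysomes, against 111 to 126 FPKM on cHet polysomes. Macrophage and neuron markers, at sums of up to 71.2 FPKM and 14.7 FPKM, were likewise above cHet in every cKO library of the same fraction, while the sums of cartilage, muscle, endothelial and erythroid markers overlapped between genotypes. The neuron markers did not move together. Of the 3 tested in input, 1 was higher and 2 were lower in cKO, with a median log2 difference of -0.42. Of the 2 tested on polysomes, 1 was higher and 1 lower. The part of these cell types in the genotype differences was not tested. These are bulk libraries, in which fewer cells of a type and less RNA per cell cannot be told apart.

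Levels of the 58 genes spanned the range from the most abundant to the undetected. Eef1a1, the carrier of aminoacyl-tRNA to the ribosome, had the highest mean over the 6 input libraries, at 5779 FPKM. The translocase gene Eef2 followed at 1197 FPKM, then the eEF1 scaffold gene Eef1g at 595 FPKM, Eif5a at 424 FPKM and the nucleotide exchange gene Eef1b2 at 336 FPKM. In all, 13 genes averaged at least 100 FPKM, 35 lay between 10 and 100 FPKM and 10 were below 10 FPKM, with a median of 37.5 FPKM. The 3 genes that did not reach 1 FPKM in 3 libraries were not tested. They were Eef1a2, the form of adult muscle and neurons, at up to 0.158 FPKM, the oocyte cap-binding gene Eif4e1b at up to 0.0252 FPKM, and Eif4ebp3 at up to 0.414 FPKM. The other 55 genes were tested.

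The factor mRNAs took a smaller share of the polysome libraries than of the input libraries. Their share of assigned reads was 2.31, 2.11 and 2.21% on cKO polysomes, against 3.61, 3.25 and 3.67% in cKO input. In cHet it was 2.09, 2.11 and 1.92% on polysomes, against 3.12, 3.10 and 2.96% in input. Polysome and input values did not overlap in either genotype, and the exact two-sided permutation p was 0.1 in each, the smallest that 3 against 3 allows. Without Eef1a1, the summed level was 4313 ± 244 FPKM on cKO polysomes and 5371 ± 530 FPKM in cKO input (SD, n = 3 each). In cHet it was 4314 ± 128 FPKM on polysomes and 5008 ± 31.8 FPKM in input (SD, n = 3 each). The lower sum thus held without that gene, again with no overlap and an exact permutation p of 0.1 in each genotype. These sums still held Eef2, with means of 631 FPKM on polysomes and 1342 FPKM in input in cKO, and 432 and 1051 FPKM in cHet. Sums without Eef2 as well were not tested, so the lower totals do not describe the factor genes in general.

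Gene by gene, some factors were depleted from polysomes relative to the average mRNA and others were enriched there. Genes of all kinds divided in this way too. Differences are given as polysome minus input on the log2(FPKM + 0.1) scale, with the standard error of limma's fit and its Benjamini-Hochberg adjusted p over all genes tested, called at 0.05. In cKO, 12 of 55 genes were called higher on polysomes, against 16.9% of all genes, and 14 were called lower, against 15.6% of all genes. In cHet, 12 were called higher, against 27.3% of all genes, and 25 were called lower, against 25.9%. The median over the 55 genes was -0.14 in cKO, beside 0.06 for all genes, and -0.39 in cHet, beside 0.02 for all genes. Of the calls, 14 lower and 10 higher were shared by both genotypes and no gene was called in opposite directions. Shared calls were not counted over all genes, and both differences came from the same fit, so these counts only describe the factor genes. Scaled to nuclear protein-coding genes, 8 were higher and 21 lower in cKO (12.4% and 19.6% of all genes), and 9 were higher and 28 lower in cHet (18.2% and 33.3% of all genes), while the median of all genes moved by -0.13 in cKO and -0.22 in cHet. With quantile normalization, 7 were higher and 20 lower in cKO (15.2% and 15.8% of all genes), and 10 were higher and 28 lower in cHet (28.1% and 24.3% of all genes). With the lysate as a block, the counts were 10 and 14 in cKO (18.1% and 14.8% of all genes), and 12 and 23 in cHet (28.2% and 26.3% of all genes). Leaving out 1 library moved the cKO counts most without polysome replicate 3, where 4 were higher and 12 lower (8.78% and 9.25% of all genes). FPKM is relative to each library's total, so a gene called lower had a smaller place among polysome mRNAs than among input mRNAs, which is no measure of ribosomes per mRNA.

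**Figure D1:**
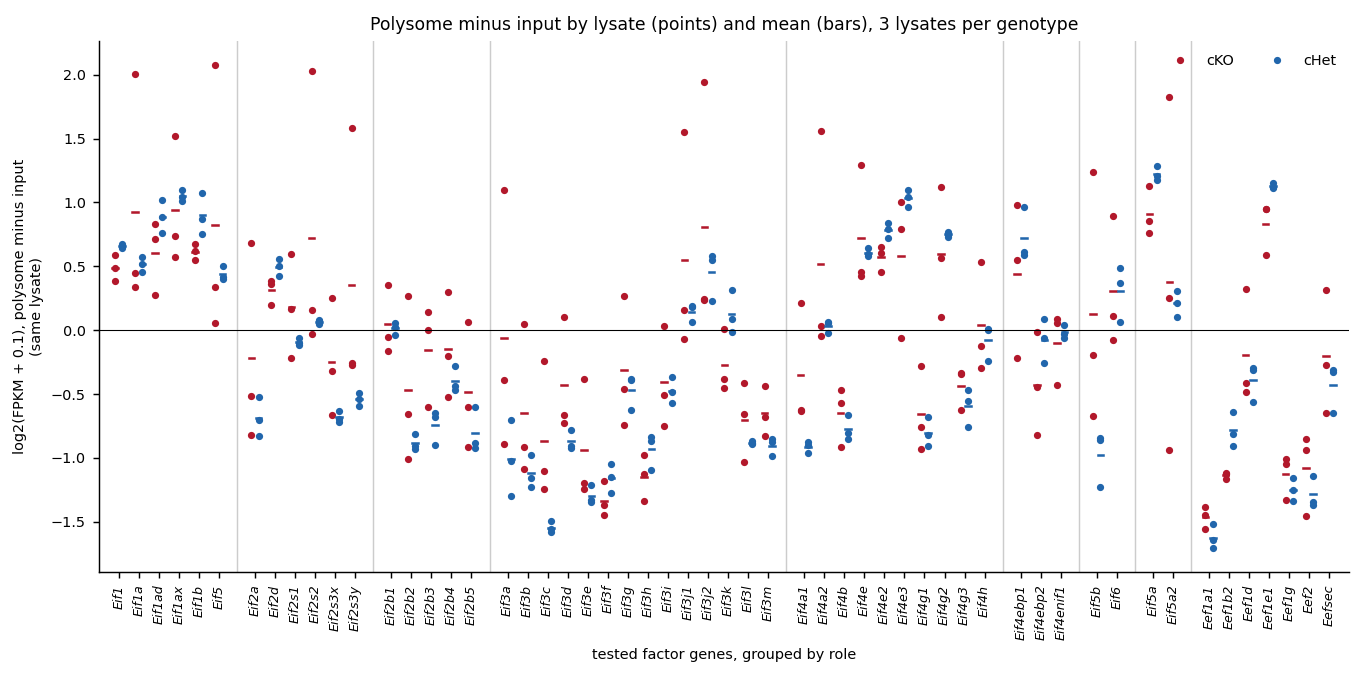
Polysome minus input on the log2(FPKM + 0.1) scale for the 55 tested factor genes, grouped by role, with a point for each lysate and a bar for the mean of 3 lysates (cKO red, left; cHet blue, right). The eIF3 and elongation genes lie mostly below 0, the scanning genes and Eif5a lie above 0, and the cKO points spread more widely than the cHet points.

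Among the elongation genes, 4 of 7 tested were called lower and 1 higher in each genotype. Over all genes, 15.6% were called lower and 16.9% higher in cKO, and 25.9% and 27.3% in cHet. Eef1a1 had the lowest log2 difference of all factor genes in both genotypes on the deposited scale. Eef1a1 was at 2854, 2067 and 2434 FPKM on cKO polysomes, against 7430, 5643 and 7174 FPKM in cKO input, and at 1537, 1704 and 1453 FPKM on cHet polysomes, against 4808, 4889 and 4732 FPKM in cHet input. Every polysome library lay below every input library. The log2 difference was -1.46 ± 0.15 in cKO (adjusted p = 0.000153) and -1.62 ± 0.15 in cHet (adjusted p = 6.21e-05). With quantile normalization its cKO call was lost (-0.67, adjusted p = 0.0846), and the lowest values were those of Eif3f in cKO (-1.55) and Eif3c in cHet (-1.74). Eef1a1 has many processed pseudogene copies, and the sources used here do not give how reads shared with such copies were counted. Eef2 was at 714, 604 and 575 FPKM on cKO polysomes, against 1290, 1157 and 1580 FPKM in cKO input, and at 419, 464 and 413 FPKM on cHet polysomes, against 1066, 1024 and 1064 FPKM in cHet input. The groups of Eef2 did not overlap either, with log2 differences of -1.08 ± 0.14 in cKO (adjusted p = 0.00049) and -1.28 ± 0.14 in cHet (adjusted p = 0.000102).

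The eEF1B complex, which recharges eEF1A with GTP, moved unevenly. Its genes Eef1g (-1.13 in cKO, -1.25 in cHet) and Eef1b2 (-1.14 in cKO, -0.78 in cHet) fell on polysomes in both genotypes. Its other exchange subunit, Eef1d, was not called, at -0.19 (adjusted p = 0.429) in cKO and -0.39 (adjusted p = 0.0826) in cHet, where protein-coding scaling, quantile normalization or leaving out both libraries that stood apart gave a call. Eef1e1, which encodes a scaffold protein of the multi-tRNA synthetase complex, went the other way. It had 21.6, 24.3 and 31.0 FPKM on cKO polysomes, against 14.4, 12.53 and 16.0 FPKM in cKO input, and 28.4, 29.2 and 28.7 FPKM on cHet polysomes, against 13.1, 13.4 and 12.9 FPKM in cHet input. These values did not overlap in either genotype, with log2 differences of 0.83 ± 0.15 in cKO (adjusted p = 0.00209) and 1.13 ± 0.15 in cHet (adjusted p = 0.000167). Eefsec, the carrier of selenocysteine tRNA, was not called in either genotype.

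Eif5a, whose hypusine-bearing product helps ribosomes through difficult peptide bonds such as runs of proline, had the largest mean rise in cHet. It was at 647, 809 and 979 FPKM on cKO polysomes, against 382, 371 and 542 FPKM in cKO input, and at 1022, 927 and 971 FPKM on cHet polysomes, against 420, 410 and 421 FPKM in cHet input. Polysome values were above input values in all 6 lysates, with log2 differences of 0.91 ± 0.17 in cKO (adjusted p = 0.00296) and 1.22 ± 0.17 in cHet (adjusted p = 0.00026). Its low-level paralog Eif5a2 was not called in either genotype (0.38 in cKO, 0.21 in cHet). The genes of the enzymes that make hypusine, Dhps (0.52 in cKO, 0.90 in cHet) and Dohh (0.63 in cKO, 0.74 in cHet), were also called higher on polysomes.

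**Figure D2:**
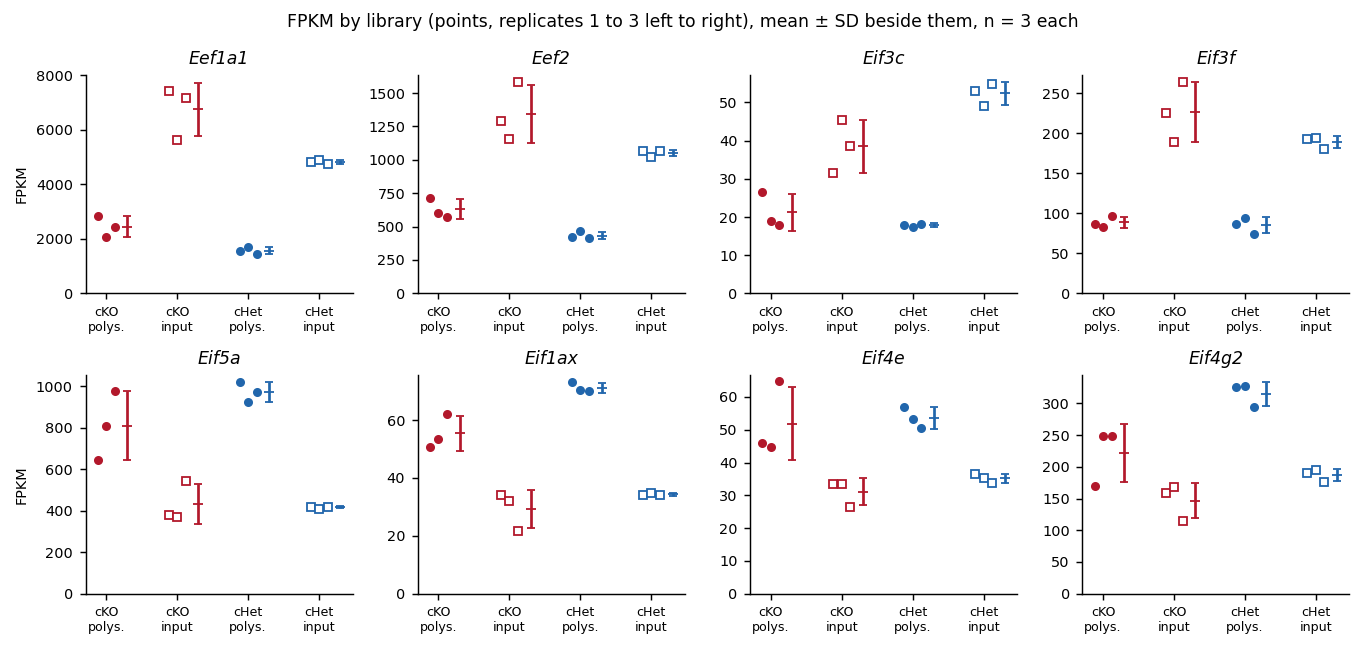
FPKM in each library for 8 factor genes, with 3 replicates per group from left to right as points and the mean ± SD beside them (cKO polysome, cKO input, cHet polysome, cHet input). Eef1a1, Eef2, Eif3c and Eif3f are lower on polysomes than in input, and Eif5a, Eif1ax, Eif4e and Eif4g2 are higher, with no overlap between polysome and input within a genotype.

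The scanning and start codon factors were enriched on polysomes. Of 6 tested, 5 were called higher in cKO, against 16.9% of all genes, and 4 in cHet, against 27.3%, and none was called lower. All but Eif5 are short, with coding lengths of 339 to 510 bases. The median of the 6 was 0.72 in cKO and 0.77 in cHet. That is near the 0.66 in cKO and 0.84 in cHet of all tested genes under 600 bases. Eif1ax, which encodes the X-linked eIF1A that keeps the scanning ribosome open, had 50.6, 53.5 and 62.1 FPKM on cKO polysomes, against 34.0, 32.1 and 21.6 FPKM in cKO input, and 73.1, 70.3 and 69.9 FPKM on cHet polysomes, against 34.1, 34.9 and 34.0 FPKM in cHet input. The groups did not overlap, and the log2 differences were 0.94 ± 0.16 in cKO (adjusted p = 0.00198) and 1.05 ± 0.16 in cHet (adjusted p = 0.000407). Eif1, whose product rejects poor start codons, rose by 0.49 in cKO (adjusted p = 0.0148) and 0.66 in cHet (adjusted p = 0.0015). Its paralog Eif1b rose by 0.62 in cKO and 0.90 in cHet, and the eIF1A-like gene Eif1ad by 0.61 in cKO and 0.89 in cHet. The autosomal Eif1a, called in cKO only, was at 0.93 in cKO (adjusted p = 0.0323) and 0.52 in cHet (adjusted p = 0.162). Eif5, the GTPase activator that competes with eIF1, was not called, at 0.83 in cKO (adjusted p = 0.0959) and 0.44 in cHet (adjusted p = 0.318). In cKO, leaving out polysome replicate 3 ended the calls of Eif1 (0.38), Eif1a (0.85), Eif1b (0.46) and Eif1ad (0.47), with adjusted p of 0.0579 to 0.11. Eif1a was also not called without polysome replicate 1 (0.88), Eif1b without input replicate 2 (0.50), and Eif1ad without input replicate 1, input replicate 2 or polysome replicate 2 (0.53 to 0.58). With quantile normalization the cKO calls of Eif1a (0.70), Eif1b (0.35) and Eif1ad (0.34) were lost too, with adjusted p of 0.0687 to 0.126, and Eif1a was not called with protein-coding scaling (0.80, adjusted p = 0.0901) or with no filter on low values (adjusted p = 0.0821). Without both libraries that stood apart, Eif1a was at 0.42 in cKO and remained called, and Eif5 was called higher in cKO (0.28, adjusted p = 0.0165).

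The start codons of these genes are shown because eIF1 and eIF5 act on the choice of start codon, and in mammals eIF1 limits the use of its own weak start. The sequences are from the GENCODE M21 annotation of GRCm38. They run from 10 bases before the start codon, and the capitals mark the third base before the start codon, the start codon itself and the base after it. A purine at the first of these places and a G at the last are the main features of a strong context.

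Eif1: atcgtatCgtATGTccg
Eif1b: ctagtgtCgcATGTcca
Eif1ax: ctttgcgGccATGCcca
Eif5: ataagccAaaATGTctg
Eif5a: gcctcttAaaATGGcag
Eef1a1: caaagcaAaaATGGgaa
Eef2: atccgccAccATGGtga

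Both Eif1 and Eif1b lack both features, while Eef1a1, Eef2 and Eif5a have both features of a strong context. The purine was found in 51 of 57 factor genes with an annotated ATG (89.5%), beside 85.0% of 19514 protein-coding genes. The 6 without it were Eif1, Eif1b, Eif3b, Eif4e1b, Eif4h and Eif6. An ATG in the annotated 5′ leader was present in 18 of 57 factor genes (31.6%), beside 51.2% of all protein-coding genes. Eif1 and Eif1b were called higher on polysomes and Eif3b lower in both genotypes, so the genes with the weak context lay on both sides. Eif4g2 has no annotated ATG start. Its coding sequence in the annotation begins at GTG, shown in capitals after 10 bases of leader and before 4 bases of coding sequence.

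Eif4g2: agccgccaaaGTGgaga

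Among the eIF4F and cap-binding genes, the cap-binding subunits rose and the main scaffold fell. They also differ in coding length, at 651 bases for Eif4e, 735 for Eif4e2, 621 for Eif4e3 and 4800 for Eif4g1. At 600 bases or more but under 1200, all tested genes had medians of 0.26 in cKO and 0.35 in cHet. At 2400 bases or more they had -0.43 in cKO and -0.69 in cHet. Of the 10 eIF4F and cap-binding genes tested, 4 were called higher in each genotype, namely Eif4e, Eif4e2, Eif4e3 and Eif4g2. Called lower were Eif4b and Eif4g1 in cKO, and Eif4a1, Eif4b, Eif4g1 and Eif4g3 in cHet. The shares of all genes were 16.9% higher and 15.6% lower in cKO, and 27.3% higher and 25.9% lower in cHet. Eif4e, the cap-binding protein of eIF4F, was at 46.0, 44.9 and 64.8 FPKM on cKO polysomes, against 33.4, 33.5 and 26.4 FPKM in cKO input, and at 57.0, 53.2 and 50.6 FPKM on cHet polysomes, against 36.5, 35.2 and 33.8 FPKM in cHet input. These groups did not overlap, with log2 differences of 0.72 ± 0.16 in cKO (adjusted p = 0.00585) and 0.61 ± 0.16 in cHet (adjusted p = 0.00737). The cHet call of Eif4e was lost with protein-coding scaling (0.38, adjusted p = 0.0695) and after quantile normalization (0.32, adjusted p = 0.103). The alternative cap-binding genes Eif4e2 (0.57 in cKO, 0.79 in cHet) and Eif4e3 (0.58 in cKO, 1.03 in cHet) rose as well. In cKO both calls were lost without input replicate 1, input replicate 2, polysome replicate 2 or polysome replicate 3, with log2 differences of 0.44 to 0.58 for Eif4e2 and 0.41 to 0.63 for Eif4e3, and Eif4e3 was not called with the lysate as a block (adjusted p = 0.0588), protein-coding scaling (0.0613), quantile normalization (0.0514) or no filter on low values (0.0879).

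The scaffolds went in opposite directions. Eif4g1, the principal scaffold that bridges the cap-binding protein, the helicase and eIF3, had 23.1, 23.8 and 21.7 FPKM on cKO polysomes, against 28.0, 40.3 and 41.5 FPKM in cKO input, and 23.5, 22.0 and 23.6 FPKM on cHet polysomes, against 41.7, 35.4 and 44.4 FPKM in cHet input. It was lower on polysomes with no overlap, with log2 differences of -0.66 ± 0.16 in cKO (adjusted p = 0.00917) and -0.81 ± 0.16 in cHet (adjusted p = 0.00143). Eif4g2, which encodes a scaffold that cannot bind the cap-binding protein, had 170, 248 and 249 FPKM on cKO polysomes, against 158, 168 and 115 FPKM in cKO input, and 325, 327 and 294 FPKM on cHet polysomes, against 191, 195 and 177 FPKM in cHet input. It was higher with no overlap, with log2 differences of 0.60 ± 0.18 in cKO (adjusted p = 0.0249) and 0.75 ± 0.18 in cHet (adjusted p = 0.00441). The cKO call was lost without input replicate 3, polysome replicate 2 or polysome replicate 3 (0.43 to 0.50), with protein-coding scaling (0.47), with quantile normalization (0.33, adjusted p = 0.185) and with no filter on low values (adjusted p = 0.0699). Among the helicase genes, Eif4a1 was at -0.35 in cKO (adjusted p = 0.105) and -0.91 in cHet (adjusted p = 0.000642), and Eif4a2 was at 0.51 in cKO (adjusted p = 0.168) and 0.03 in cHet (adjusted p = 0.927). The helicase cofactor gene Eif4b was called lower in both genotypes and Eif4h in neither. Of the 3 tested genes whose products hold back the cap-binding protein, only Eif4ebp1 was called, in cHet only (0.72, adjusted p = 0.0265), and it was at 0.44 (adjusted p = 0.19) in cKO. The cHet call was lost when any of the 3 input replicates or polysome replicate 2 was left out (0.58 to 0.74), with protein-coding scaling (0.49), with quantile normalization (0.46) and with no filter on low values (adjusted p = 0.063). In cKO, leaving out polysome replicate 1 gave calls for Eif4ebp1 (0.77, adjusted p = 0.00454) and Eif4a1 (-0.53, adjusted p = 0.00413), as did leaving out both libraries that stood apart (0.90 for Eif4ebp1 and -0.47 for Eif4a1). Eif4a1 was also called in cKO with protein-coding scaling (-0.48) and quantile normalization (-0.62), and Eif4ebp2 was called lower there with the same scalings (-0.56 and -0.71).

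Differences between paralogs were measured within each of the 6 lysates, for 10 pairs chosen by name, and each was tested by exact sign flips over lysates, whose smallest two-sided p is 0.03125. No pair passed after Benjamini-Hochberg adjustment over the 10 pairs, of which 5 reached the smallest p and so had an adjusted p of 0.0625. The log2 difference of Eif4g1 minus that of Eif4g2 averaged -1.40 (95% confidence interval -1.99 to -0.82, adjusted exact p = 0.0625), and it was negative in 6 of 6 lysates. Eif4g3 minus Eif4g2 averaged -1.19 (-1.59 to -0.79) and Eif4ebp1 minus Eif4ebp2 averaged 0.83 (0.65 to 1.01), each with 6 of 6 lysates on the same side and an adjusted exact p of 0.0625. Eif4g1 minus Eif4g3 averaged -0.22 (-0.44 to 0.01, adjusted exact p = 0.0893), negative in 5 of 6 lysates. Eif1 minus Eif1b averaged -0.18 (-0.32 to -0.05) and Eif2s3x minus Eif2s3y -0.37 (-0.88 to 0.14), also with 6 of 6 lysates on the same side. Eif4a1 minus Eif4a2 averaged -0.90 (-1.71 to -0.10), negative in 5 of 6 lysates, with an adjusted exact p of 0.0893. Eif4e minus Eif4e2 averaged -0.01, with an interval of -0.38 to 0.36. The other pairs were Eif5a and Eif5a2, with an adjusted exact p of 0.156, and Eif4e and Eif4e3, with 0.625.

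The eIF3 genes, which encode the scaffold of the small subunit complex, were mostly depleted. Of 14 tested, 8 were called lower and 1 higher in cKO, against 15.6% and 16.9% of all genes. In cHet, 11 were called lower and none higher, against 25.9% and 27.3% of all genes. The median log2 difference of the 14 was -0.54 in cKO and -0.89 in cHet. Eif3c, part of the structural core, had 26.6, 19.1 and 17.9 FPKM on cKO polysomes, against 31.5, 45.4 and 38.6 FPKM in cKO input, and 17.3 to 18.3 FPKM over the 3 cHet polysome libraries, against 53.1, 49.0 and 54.9 FPKM in cHet input. The fall was -0.87 ± 0.17 in cKO (adjusted p = 0.00341) and -1.55 ± 0.17 in cHet (adjusted p = 0.000102), without overlap, and the cKO value was smallest in lysate 1. Eif3f was at 87.0, 83.2 and 96.7 FPKM on cKO polysomes, against 225, 189 and 264 FPKM in cKO input, and at 87.0, 93.7 and 74.2 FPKM on cHet polysomes, against 193, 194 and 180 FPKM in cHet input. Its groups did not overlap, with -1.33 ± 0.15 in cKO (adjusted p = 0.000232) and -1.16 ± 0.15 in cHet (adjusted p = 0.000158).

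Further eIF3 genes lower in both genotypes were Eif3e (-0.94 in cKO, -1.30 in cHet), Eif3h (-1.15 in cKO, -0.93 in cHet), Eif3b (-0.65 in cKO, -1.12 in cHet), Eif3l, Eif3m and Eif3d. In cKO, Eif3d missed the call with the lysate as a block (adjusted p = 0.0938), by limma-voom on recovered reads (0.0708), with no filter on low values (0.0828) and without input replicate 2, input replicate 3, polysome replicate 2 or polysome replicate 3 (-0.41 to -0.32). The cKO call of Eif3b was lost without input replicate 2, polysome replicate 2 or polysome replicate 3 (-0.61 to -0.56). The 3 genes Eif3a, Eif3g and Eif3i were called in cHet only, and Eif3g was not called with the block (adjusted p = 0.0683). With no filter on low values, Eif3g (adjusted p = 0.0618) and Eif3a (adjusted p = 0.0937) were not called. These 3 cHet calls were weak, with an adjusted p of up to 0.114 for Eif3g, 0.0797 for Eif3i and 0.107 for Eif3a when a cHet library was left out. Leaving out any cHet library ended the call of Eif3a, any but polysome replicate 3 that of Eif3g, and any input replicate or polysome replicate 2 that of Eif3i. Eif3a, the largest core subunit, was at -1.01 in cHet (adjusted p = 0.0374) and at -0.06 in cKO (adjusted p = 0.914), where input replicate 3 held 13.2 FPKM against 44.8 and 47.3 FPKM in the other cKO input libraries. Without both libraries that stood apart, all 3 were called lower in cKO too, at -0.78 for Eif3a (adjusted p = 0.000779), -0.37 for Eif3g (adjusted p = 0.0213) and -0.39 for Eif3i (adjusted p = 0.00757). The 3 genes not called lower in either genotype were Eif3k, Eif3j1 and Eif3j2, which encode subunits at the edge of the complex or loosely bound to it. Eif3k was called lower in cKO with protein-coding scaling (-0.40, adjusted p = 0.0437) and quantile normalization (-0.57, adjusted p = 0.00689). The call above 0 in cKO was Eif3j2 (0.81, adjusted p = 0.0494), which was not called with the block (adjusted p = 0.0863), with protein-coding scaling (0.68), with pseudocount 1, with no filter on low values (adjusted p = 0.121) or without input replicate 1, input replicate 3, polysome replicate 2 or polysome replicate 3 (0.50 to 0.94). Eif3j1 and Eif3j2 are near-identical copies between which reads may be divided.

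**Figure D3:**
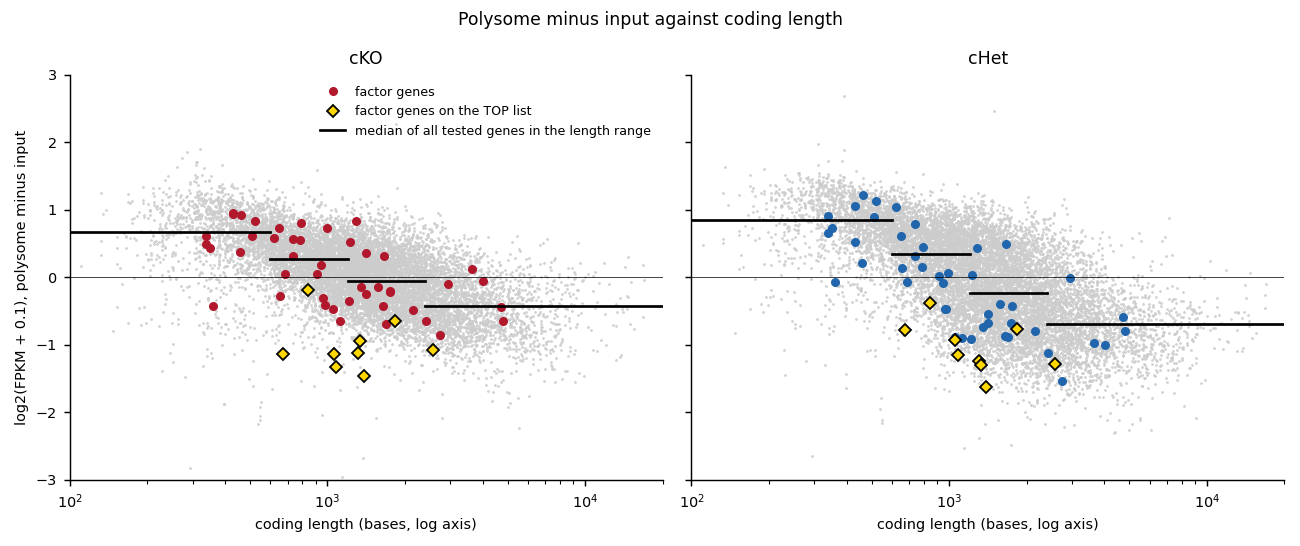
Polysome minus input on the log2(FPKM + 0.1) scale (y) against coding length in bases on a log axis (x), for cKO (left) and cHet (right), with all tested genes in grey, factor genes in colour, factor genes of the TOP list as diamonds and black bars for the median of all tested genes in 4 length ranges. The grey cloud falls with coding length, the short factor genes lie near the bars, and all 9 diamonds lie below them in both panels. Genes without an annotated ATG, Eif4g2 among them, are not shown.

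The division into lower and higher genes tended to follow coding length, a property that no selection step used. The 14 genes lower in both genotypes had a median coding length of 1515 bases, and the 9 genes higher in both with an annotated ATG had a median of 510 bases. Eif4g2 was also higher in both and went against this trend, with 2718 bases annotated from its GTG start. It was left out of the length comparisons that follow. Over the 54 tested factor genes with an annotated ATG, Spearman's rho between length and the log2 difference was -0.55 in cKO and -0.71 in cHet. Across 11840 genes of all kinds rho was -0.61 in cKO and -0.66 in cHet, so the relation was of similar size across all genes. Genes are not independent replicates, and the points share libraries. Against genes of the same length range, the shortest factor genes lay near the median. Below 600 bases, the median of 10 factor genes was 0.61 in cKO and 0.80 in cHet, beside 0.66 in cKO and 0.84 in cHet for 1657 genes. At 1200 bases or more but under 2400, 17 factor genes had medians of -0.25 in cKO and -0.74 in cHet, beside -0.07 in cKO and -0.24 in cHet for 4297 genes.

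The factor genes known to carry TOP motifs in mammals lay below genes of their length range. The TOP list held Eef1a1, Eef1b2, Eef1d, Eef1g, Eef2, Eif3e, Eif3f, Eif3h and Eif4b. In each genotype 8 of the 9 were called lower, Eef1d being the exception, against 15.6% of all genes in cKO and 25.9% in cHet. Their median was -1.13 in cKO and -1.16 in cHet. All 9 lay below the median of tested genes in their length range, by 0.46 to 1.60 in cKO and 0.54 to 1.51 in cHet on the log2 scale. At 600 bases or more but under 1200, the 4 TOP genes had medians of -1.14 in cKO and -0.86 in cHet, while the other 15 factor genes had 0.18 in cKO and 0.07 in cHet, and 3469 genes of all kinds had 0.26 in cKO and 0.35 in cHet. A low place was not particular to the list. In cHet, the 13 other factor genes of 1200 bases or more but under 2400 had -0.68, beside -0.24 for all genes. The 7 of 2400 or more had -0.98, beside -0.69. In cKO the same sets had -0.20 beside -0.07 and -0.44 beside -0.43. Eif3m, off the list with 1122 coding bases, was at -0.65 in cKO and -0.90 in cHet. Eef1b2, with a coding length of 675 bases, was at 158, 139 and 183 FPKM on cKO polysomes, against 342, 305 and 410 FPKM in cKO input, and at 202, 176 and 178 FPKM on cHet polysomes, against 314, 329 and 313 FPKM in cHet input. Its polysome values were all below its input values, unlike most short mRNAs. Outside the factors, the poly(A)-binding gene Pabpc1, itself a TOP mRNA, was at -1.52 in cKO and -1.65 in cHet, and the regulator genes Larp1 (-0.61 in cKO, -0.79 in cHet) and Mtor (-0.70 in cKO, -0.80 in cHet) were also called lower. Pabpc1, Larp1 and Mtor were not compared with genes of their own length range.

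The transcription start windows are shown to let the pyrimidine runs be seen, for the 5 TOP list genes with a RefSeq start (Eef1a1, Eef2, Eef1b2, Eif3f and Eif4b), for Eif3l, lower on polysomes but not on the list, and for Eif5a, Eif4e, Eef1e1 and Eif1ad, which were higher. They come from RefSeq on GRCm38.p6, 30 bases on the coding strand chosen to hold the longest run of C or T within 50 bases of the annotated start, with that run in capitals. Relative to the start, the run began at base -5 in Eef1a1, 15 in Eef2, 33 in Eef1b2, -4 in Eif3f and -38 in Eif4b. It began at -7 in Eif3l, 39 in Eif5a, 19 in Eif4e, 12 in Eef1e1 and -31 in Eif1ad. The runs of Eif4b and Eif1ad lay wholly before the start.

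Eef1a1 (chr9:78481710-78481739, minus strand): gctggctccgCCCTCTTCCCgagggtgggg
Eef2 (chr10:81176634-81176663, plus strand): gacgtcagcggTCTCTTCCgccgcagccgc
Eef1b2 (chr1:63176850-63176879, plus strand): ttgcgtccgagcgCTTTCgttcaactccgg
Eif3f (chr7:108934403-108934432, plus strand): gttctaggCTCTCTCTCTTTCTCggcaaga
Eif4b (chr15:102073723-102073752, plus strand): gctcagactccaCCCCTTCggccacatgtc
Eif3l (chr15:79075206-79075235, plus strand): aggcgcggagTTCTTCTTCCgctctctccc
Eif5a (chr11:69921909-69921938, minus strand): actagcgtgagagcagagTCTCCCacggaa
Eif4e (chr3:138526196-138526225, plus strand): cggagggagctggTCCTTaaggaaggcacg
Eef1e1 (chr13:38659000-38659029, minus strand): gtgcaggccccgCCTCCCTaggagctgggc
Eif1ad (chr19:5366771-5366800, plus strand): ctgttttccggTTCCTCTCaagaagccatc

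A RefSeq start was found for 44 of the 58 factor genes. A run of at least 8 C or T on the coding strand lay in the 100 bases around the start of 17 of the 44 (38.6%), beside 35.7% of 27025 genes, and a run of at least 8 A or G, the same motif on the other strand, in 22.7% of factor genes, beside 37.2% of genes. Among genes lower in both genotypes, 6 of the 11 with a start had such a C or T run, and among genes higher in both it was 1 of 8, Eif1ad. The TOP list genes Eef1b2 and Eif4b had shorter runs, of 5 and 7 bases. Runs on either side of the start were counted, and those of Eif3c, Eif3m and Eif1ad lay wholly before it. The counts are therefore not counts of TOP motifs. The sets of lower and higher genes were formed from the polysome differences, so the counts are a description and carry no test.

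Among the genes around initiator tRNA and subunit joining, the main fit over all libraries made calls in cHet and not in cKO. The same fit called 27.3% of all genes higher and 25.9% lower in cHet, and 16.9% and 15.6% in cKO. Of the 6 genes of eIF2 and other tRNA carriers, none was called in cKO, while in cHet Eif2d, the gene of a GTP-independent tRNA carrier, was called higher (0.49, adjusted p = 0.0119) and Eif2a and Eif2s3x were called lower. Eif2a missed the call with the lysate as a block (adjusted p = 0.0575), with quantile normalization (0.0784), with no filter on low values (0.111) and when any cHet library was left out (adjusted p of up to 0.126). The call of Eif2d was lost without polysome replicate 1 (0.44, adjusted p = 0.0527) and with protein-coding scaling (0.27, adjusted p = 0.0802), and that of Eif2s3x with no filter on low values (adjusted p = 0.0569) and when any cHet library but polysome replicate 2 was left out (-0.71 to -0.63). The eIF2 core genes Eif2s1 and Eif2s2 were near 0 in cHet (-0.09 and 0.07). Eif2s3y, the Y-linked copy of the gamma subunit gene, ranged over 0.537 to 2.68 FPKM in the cHet libraries, with replicate 3 the highest in both fractions. Of the 5 eIF2B genes, Eif2b2, Eif2b3 and Eif2b5 were lower in cHet (-0.88, -0.74 and -0.80), and none was called in cKO. For subunit joining, Eif5b was lower in cHet (-0.98, adjusted p = 0.026) and stood at 0.12 (adjusted p = 0.8) in cKO, and the ribosome anti-association gene Eif6 was not called. The cHet call of Eif5b was lost without input replicate 1, input replicate 3, polysome replicate 2 or polysome replicate 3 (-0.97 to -0.91), and with no filter on low values (adjusted p = 0.069). Without both libraries that stood apart, Eif2s3x (-0.71), Eif2a (-0.63), Eif2b2 (-0.52), Eif2b5 (-0.51) and Eif5b (-0.43) were called lower in cKO and Eif2d (0.53) higher, with adjusted p of 0.000134 to 0.0227, while Eif2b3 was not called (-0.33, adjusted p = 0.112). With protein-coding scaling and all libraries kept, Eif2b5 (-0.62) and Eif2b2 (-0.60) were called lower in cKO, and they were called lower with quantile normalization as well. Eif2b5 was also called lower in cKO with pseudocount 1.

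Beyond the factors, 37 tested genes of the same pathway were called in both directions, with 8 higher and 9 lower in cKO, where 16.9% and 15.6% of all genes were, and 7 higher and 14 lower in cHet, where 27.3% and 25.9% of all genes were. The diphthamide genes Dph1, Dph2 and Dph3, whose products modify eEF2, were lower in both genotypes, as Eef2 itself was, while Dph5 was not called (0.32 in cKO, 0.13 in cHet). The eEF1A methyltransferase genes Eef1akmt1 (1.02 in cKO, 1.20 in cHet), Eef1akmt2 (0.92 in cKO, 0.83 in cHet) and Eef1akmt4 (0.69 in cKO, 0.98 in cHet) were higher, opposite to their substrate's gene Eef1a1. Paip2, which encodes an inhibitor of poly(A)-binding protein, was higher (1.15 in cKO, 1.11 in cHet), opposite to Pabpc1.

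Between genotypes, the levels of the factor mRNAs did not pass the test in either fraction. With limma on the 6 input libraries, 0 of 55 factor genes were called between cKO and cHet, as were 0% of 12977 genes, and 6 factor genes (10.9%) had an unadjusted p under 0.05, beside 14.97% of all genes. On polysomes 0 of 55 were called, as were 0% of 12877 genes, with 9 (16.4%) at an unadjusted p under 0.05, beside 21.3%. With limma-voom on reads recovered from the FPKM, 0 factor genes were called in either fraction, with 8 in input and 10 on polysomes at an unadjusted p under 0.05. Libraries of cKO and cHet did not overlap for 15 factor genes in input, where 29.3% of all genes did not, and for 18 on polysomes, where 31.4% did not.

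Eef1a1 had the smallest p in both fractions. In input it stood at 7430, 5643 and 7174 FPKM in cKO, against 4808, 4889 and 4732 FPKM in cHet, a log2 difference of 0.48 ± 0.14 (adjusted p = 0.222). On polysomes it stood at 2854, 2067 and 2434 FPKM in cKO, against 1537, 1704 and 1453 FPKM in cHet, a log2 difference of 0.64 ± 0.18 (adjusted p = 0.132). All 3 cKO libraries were above all 3 cHet libraries in both fractions, although the difference did not pass over all genes. Eef2 behaved alike, at 0.34 in input (adjusted p = 0.32) and 0.54 on polysomes (adjusted p = 0.14), again without overlap. The summed level of the 58 genes was 12121 ± 1347 FPKM in cKO input and 9818 ± 81.3 FPKM in cHet input (SD, n = 3 each, exact permutation p = 0.1, the smallest possible). Without Eef1a1 it was 5371 ± 530 FPKM in cKO input and 5008 ± 31.8 FPKM in cHet input, with overlap (exact permutation p = 0.4).

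Other genes with the smallest p in input were Eif1b (0.44, adjusted p = 0.241), Eif4ebp1 (0.40, adjusted p = 0.279) and Eif3c (-0.46, adjusted p = 0.247). On polysomes they were Eif2b2 (0.56, adjusted p = 0.18), Eif2d (-0.42, adjusted p = 0.155) and Eif4g2 (-0.53, adjusted p = 0.181). For Eif4g2 the polysome values were 170, 248 and 249 FPKM in cKO, against 325, 327 and 294 FPKM in cHet, so that every cKO library was lower. For Eif2d they were 6.19, 7.10 and 7.72 FPKM in cKO, against 10.1, 9.20 and 8.95 FPKM in cHet. Without cKO input replicate 3, 326 genes (2.54%) were called in input, and without cKO polysome replicate 1, 160 genes (1.26%) were called on polysomes, with 0 factor genes among either. The same held without cKO input replicate 2 (0.366% of all genes called), without cKO polysome replicate 2 (1.82%), with the replicate number as a block on polysomes (0.326%) and with the spread taken over all 12 libraries (0.602% in input and 1.35% on polysomes), each with 0 factor genes. Without the library that stood apart, Eef1a1 had log2 differences of 0.43 in input (adjusted p = 0.0969) and 0.52 on polysomes (adjusted p = 0.117).

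**Figure D4:**
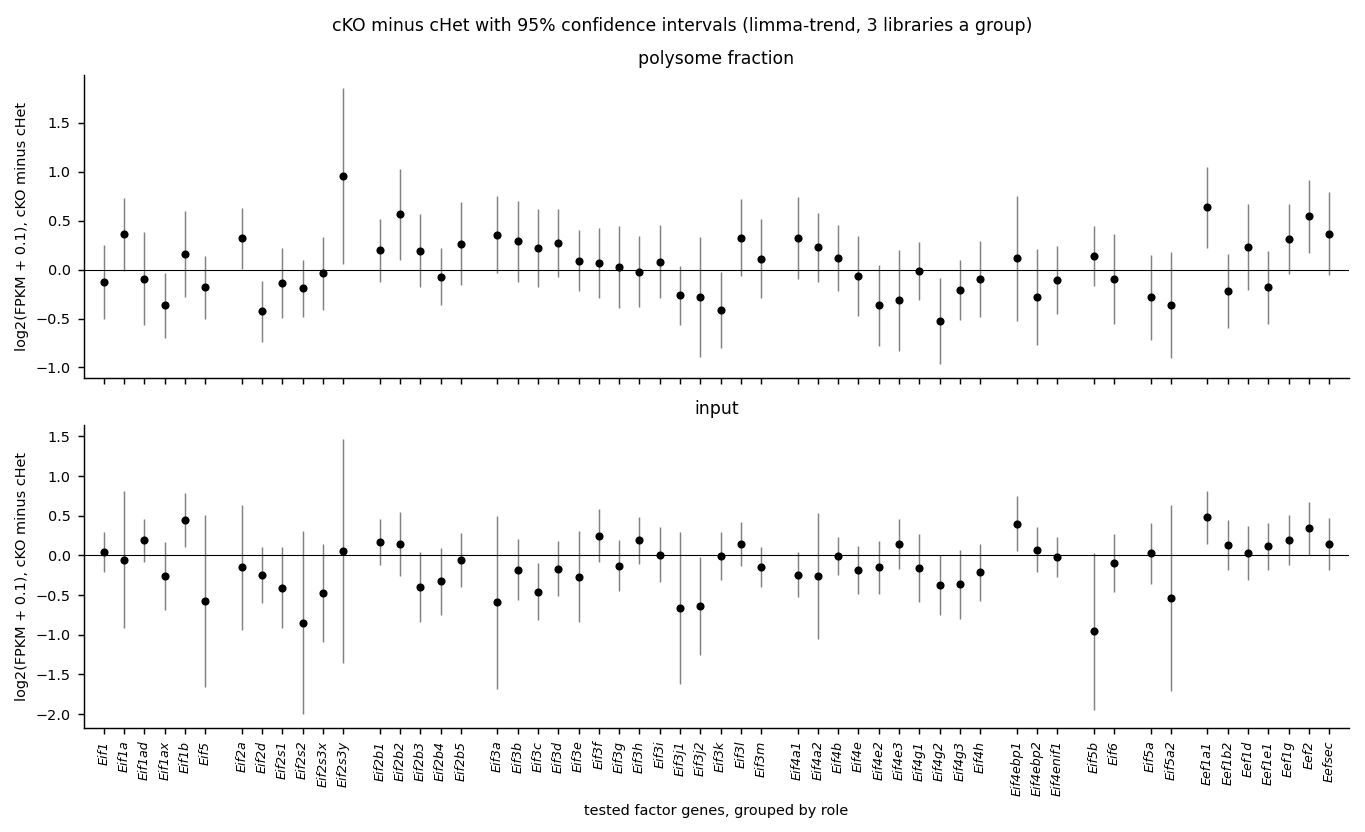
cKO minus cHet on the log2(FPKM + 0.1) scale for the 55 tested factor genes on polysomes (top) and in input (bottom), with 95% confidence intervals from limma, 3 libraries per group. No gene passed the adjusted threshold, and the widest input intervals belong to genes that are low in cKO input replicate 3.

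Several factor genes were much lower in cKO input replicate 3 than in the other input libraries. Against the median of the 3 cHet input libraries, 9 of 55 factor genes lay more than 1 log2 unit lower in cKO input replicate 3, beside 12.4% of 11510 genes, and none did in either other cKO input library. Eif5 was at 59.0, 54.4 and 16.3 FPKM in cKO input, against 55.5, 55.9 and 55.3 FPKM in cHet input. Eif2s2 was at 23.8, 25.5 and 6.49 FPKM in cKO input, against 29.2, 28.1 and 28.3 FPKM in cHet input. In both genes the third cKO library was by far the lowest. For Eif2s2 the other cKO input libraries were also below every cHet input library. The other 7 were Eif2s3x, Eif3a, Eif3j1, Eif3j2, Eif4a2, Eif5a2 and Eif5b. For Eif2s3x, Eif3j1 and Eif5b, too, every cKO input library was below every cHet input library. The transcripts of the 9 genes were poor in G and C: they had a GC content of 38.8 to 44.5%, and the other 46 had a median of 50.6%. In cKO input replicate 3, Spearman's rho between GC content and the deviation was 0.63 over the 55 factor genes and 0.68 over 11510 genes, beside -0.31 and -0.06 over the factor genes in cKO input replicates 1 and 2. In cHet input replicates 1, 2 and 3 it was -0.12, -0.38 and 0.38 over the factor genes. Over the 11510 genes it was -0.14 to 0.03 in the other input libraries. The part of the GC relation of cKO input replicate 3 in the genotype differences of these genes was not tested.

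**Figure D5:**
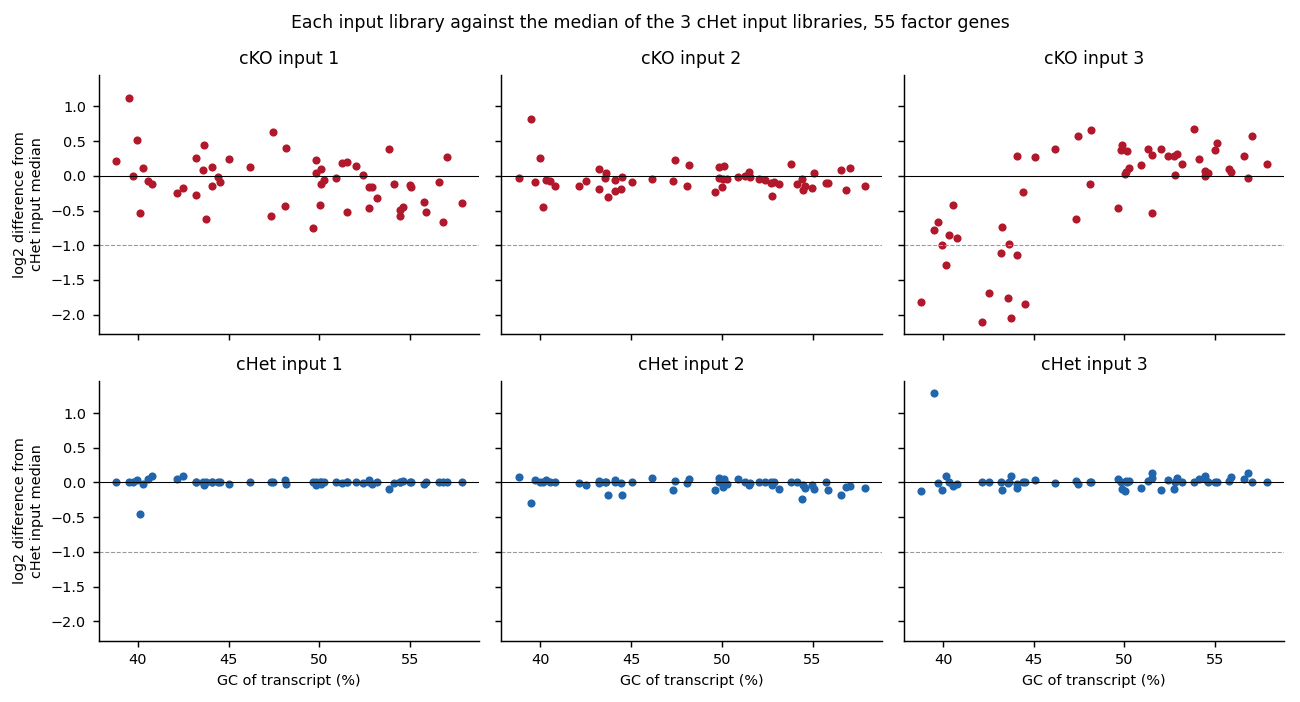
Log2 difference of each input library from the median of the 3 cHet input libraries (y) against the GC content of the transcript in percent (x) for 55 factor genes, with cKO libraries above and cHet libraries below and a dashed line at -1. Only cKO input replicate 3 has points below -1, all of them at a GC content of at most 44.5%, and the isolated high points in 3 of the libraries are Eif2s3y.

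The effect of genotype on the polysome-to-input difference was tested directly over all 12 libraries. By limma, 0 of 55 factor genes were called, as were 0% of 13610 genes, and 4 factor genes (7.27%) had an unadjusted p under 0.05, beside 4.69% of all genes. With limma-voom 0 were called as well, with 5 at an unadjusted p under 0.05. The median over the factor genes was 0.16, beside 0.02 for all genes, and it was 0.05 without both libraries that stood apart. The smallest p belonged to Eif3c (0.68 ± 0.24), Eif4a1 (0.56 ± 0.22), Eif2b3 (0.59 ± 0.24), Eif5b (1.10 ± 0.47) and Eif3d (0.44 ± 0.22), each with an adjusted p of 0.79. Without both libraries, Eif3c was at 0.51, Eif4a1 at 0.45 and Eif5b at 0.54 (adjusted p = 0.725 each). The calls made in 1 genotype only are therefore not shown to differ between genotypes. Without those libraries, the counts were 15 higher and 24 lower in cKO (29.5% and 30% of all genes), and 15 higher and 28 lower in cHet (36% and 35.7% of all genes).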

How the data were processed

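Mouse limb bud RNA was sequenced from cytoplasmic lysates and from their polysome fractions. Reads had been mapped to mm10 with HISAT2 2.0.5 and counted per gene with featureCounts 1.5.0-p3, per the submitters' processing notes, and the authors deposited FPKM per gene and library. Strand setting, handling of shared reads, ribosomal RNA removal and poly(A) selection are not given in the sources used here. Whole reads were recovered from FPKM and gene length for 100% of values (tolerance 0.01 reads), which gave the depth of each library and the counts for voom. This depth covers counting error only.

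From the deposited FPKM, limma 3.58.1 (R 4.3.3, trend) was fitted to log2(FPKM + 0.1) over genes with at least 1 FPKM in 3 fitted libraries, and called at a Benjamini-Hochberg adjusted p of 0.05. The pseudocount understates changes of low genes. Polysome against input and its interaction with genotype used all 12 libraries in 4 groups, and genotype within a fraction used 6 libraries. The scripts were tested on simulated data. Input and polysome of the same number came from the same lysate by the design, and their deviations correlated at 0.0525 to 0.249, above every pair of different numbers (at most 0.00399). The numbers did not pair the genotypes (-0.281 to 0.165). The lysate block was run beside the main design.

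The 58 genes and all gene lists were chosen with earlier results of these data known. The genes given with values were Mettl14, up to 8 per direction with the largest difference for polysome against input, the 5 with the smallest p for each genotype comparison, the 5 highest in input, and paralog groups. Cell type lists were summed per library. Paralog sign flips, coding length, GC content, start codons and start windows were added after values were seen, with 1 basic GENCODE M21 transcript per gene.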

Additional observations from a re-analysis of the deposited data

How the results depend on the processing

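Over 14 alternatives each for polysome against input, no named gene reversed, and calls were lost in 22 of 224 gene results in cKO and 7 of 224 in cHet. Those results cover only the 16 genes named for the largest differences in each genotype. Among the other called genes, Eif4e3 kept its cKO call in 6 of 14 alternatives and Eif2a its cHet call in 5 of 14, the fewest. The counts of factor genes called higher and lower were 12 and 14 in cKO and 12 and 25 in cHet. They became 7 higher and 20 lower in cKO, and 10 and 28 in cHet, with quantile normalization, and 8 and 21 in cKO, and 9 and 28 in cHet, with scaling to nuclear protein-coding genes. That scaling moved the share of all calls that were higher to 38.7% in cKO and 35.3% in cHet, against 52.1% in cKO and 51.3% in cHet as deposited. Without both libraries that stood apart the counts were 15 and 24 in cKO and 15 and 28 in cHet. Leaving out each replicate gave 4 to 13 higher and 12 to 19 lower in cKO, and 11 to 12 higher and 19 to 22 lower in cHet. The lowest, 4 higher, came without cKO polysome replicate 3, and 7 were higher without cKO polysome replicate 2. The cause was not tested. With the replicate block for lysates the counts were 10 and 14 in cKO, 12 and 23 in cHet, and 0 for the interaction. The block changed no call other than those of Eif2a, Eif3d, Eif3g, Eif3j2, Eif4e3 and Eif4g3, the last gained in cKO. Between genotypes, 0 factor genes were called under any alternative. Depth limits Eif2s3y, Eif2b3 and the untested genes most. The mRNA values say nothing of protein levels.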
